A study of Mus musculus with 4 samples.

Results

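Oxidative phosphorylation is carried by 5 protein complexes of the inner mitochondrial membrane, and their nuclear-encoded subunits were followed here in mouse erythroid progenitors with and without Rcor1, which encodes the CoREST scaffold of a histone demethylase and deacetylase complex. Members were the genes whose names match the subunit families Ndufa, Ndufb, Ndufc, Ndufs, Ndufv, Sdha to Sdhd, Uqcr, Cox4 to Cox8 and Atp5, pseudogene names left out, with at least 40 counts summed over the 4 libraries. They numbered 82 of the 35927 genes with counts: 35 of complex I, 4 of complex II, 7 of complex III, 15 of complex IV, 14 of complex V, and 7 whose names match without being subunits. A further 9 matching names were under the minimum. Ndufb4 (72 counts in all) was just inside it, and Cox4i2 (31 counts) and Ndufs5 (30 counts) were just outside.

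The libraries were mRNA-seq of CD71+ TER119- cells, sorted by flow cytometry from fetal livers of C57BL/6 embryos at E13.5. The control group held Rcor1+/+ and Rcor1+/- embryos together, and the mutant group was Rcor1-/-. Each group had 2 libraries, and each library was made from pooled samples, so the spread between libraries is a spread between pools. The sources used here name no driver or Cre for the allele and do not say which part of Rcor1 it lacks. Since these were bulk samples, a change in RNA per cell cannot be told apart from a change in which cells passed the gate.

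In the respiratory chain, complex I takes electrons from NADH and complex II takes them from succinate. Both pass them to ubiquinone, complex III passes them to cytochrome c, and complex IV passes them to oxygen. Complexes I, III and IV pump protons, and complex V, the ATP synthase, uses the returning protons to make ATP. Erythroid progenitors divide quickly and depend on mitochondria for heme and iron-sulfur clusters as well as for ATP. The subunits encoded by mitochondrial DNA were not analysed here.

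The knocked-out gene was read first as a check of the labels. For Rcor1, identifier ENSMUSG00000037896, both controls (4083 and 3807 counts) exceeded both mutants (2061 and 1240 counts). Its log2 fold change was -1.09 ± 0.06 (SE, n = 2 libraries a group; edgeR quasi-likelihood test, Benjamini-Hochberg adjusted p = 4.6e-11), and reads of the gene remained in the mutants. Library totals ran from 15053229 to 26892375 counts. Erythroid identity genes were abundant: Tfrc, which encodes CD71, was at 1136 and 1361 CPM (read counts normalised to library size) in controls and 856 and 907 CPM in mutants. Of 10 erythroid markers 9 fell (median log2 fold change -0.53), and the exception, Hba-a1, was at 5.59 to 8.06 CPM. Over all tested genes 29.2% fell, and of non-members at 256 CPM or more 66.7% fell. Markers of other fetal liver cells were present, and many were higher in the mutants. Over all tested genes 28.3% were higher, and of non-members below 16 CPM 36.3% were higher. The hepatoblast genes Afp (455 and 444 CPM in controls, 663 and 658 CPM in mutants) and Alb (329 and 334 against 427 and 439 CPM) were as abundant as many subunits. The endothelial gene Egfl7 was at 140 to 151 CPM and did not pass the test (-0.10). Of the other endothelial markers Eng was at 18.9 to 28.9 CPM, and the rest were at 10.1 CPM or less. The 12 hepatoblast markers took 0.0938% to 0.0948% of control and 0.141% to 0.142% of mutant counts (8 of 11 tested rose). The 10 megakaryocyte markers took 0.0109% to 0.0111% and 0.0325% to 0.0337% (8 rose and 1 fell), and the 10 mesenchymal markers took at most 0.000798% and 0.00284% (8 called higher). Of these 8, Lum, Postn, Pdgfra and Dcn had 3 to 9 counts in each control. These genes passed the expression filter only through the mutant libraries, so their calls carry no weight. Among 10 endothelial markers 5 rose and 1 fell, and among 10 granulocyte markers 5 rose and 1 fell. Among 8 tested macrophage markers 2 rose, no larger a share than over all tested genes, with Cd163 at 0 in every library. The other-cell markers were not tested as sets. Their part in the results below was not tested.

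Subunit transcripts were mostly lower in the mutant libraries, by small amounts. Of the 82 members 44 fell (53.7%), 4 rose and 34 did not pass the test (edgeR quasi-likelihood, adjusted p under 0.05 over all 13140 genes tested). In the same comparison 29.2% of all tested genes were lower and 28.3% were higher, 57.5% in either direction. The median log2 fold change of the members was -0.20 against 0.01 for all tested genes, and 67 of 82 were below 0. The falls ran from -0.14 for Sdhc to -0.73 for Atp5g1, with a median of -0.34, that is 20.7% less RNA; 0 of them reached 2-fold. For 53 members both mutant libraries lay below both control libraries, as they did for 38.4% of all tested genes, and for 5 members both mutants lay above both controls (39.5% of all tested genes). An exact permutation test of 2 libraries against 2 cannot go below p = 0.33, so single genes were judged by the fit across all genes.

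**Figure D1:**
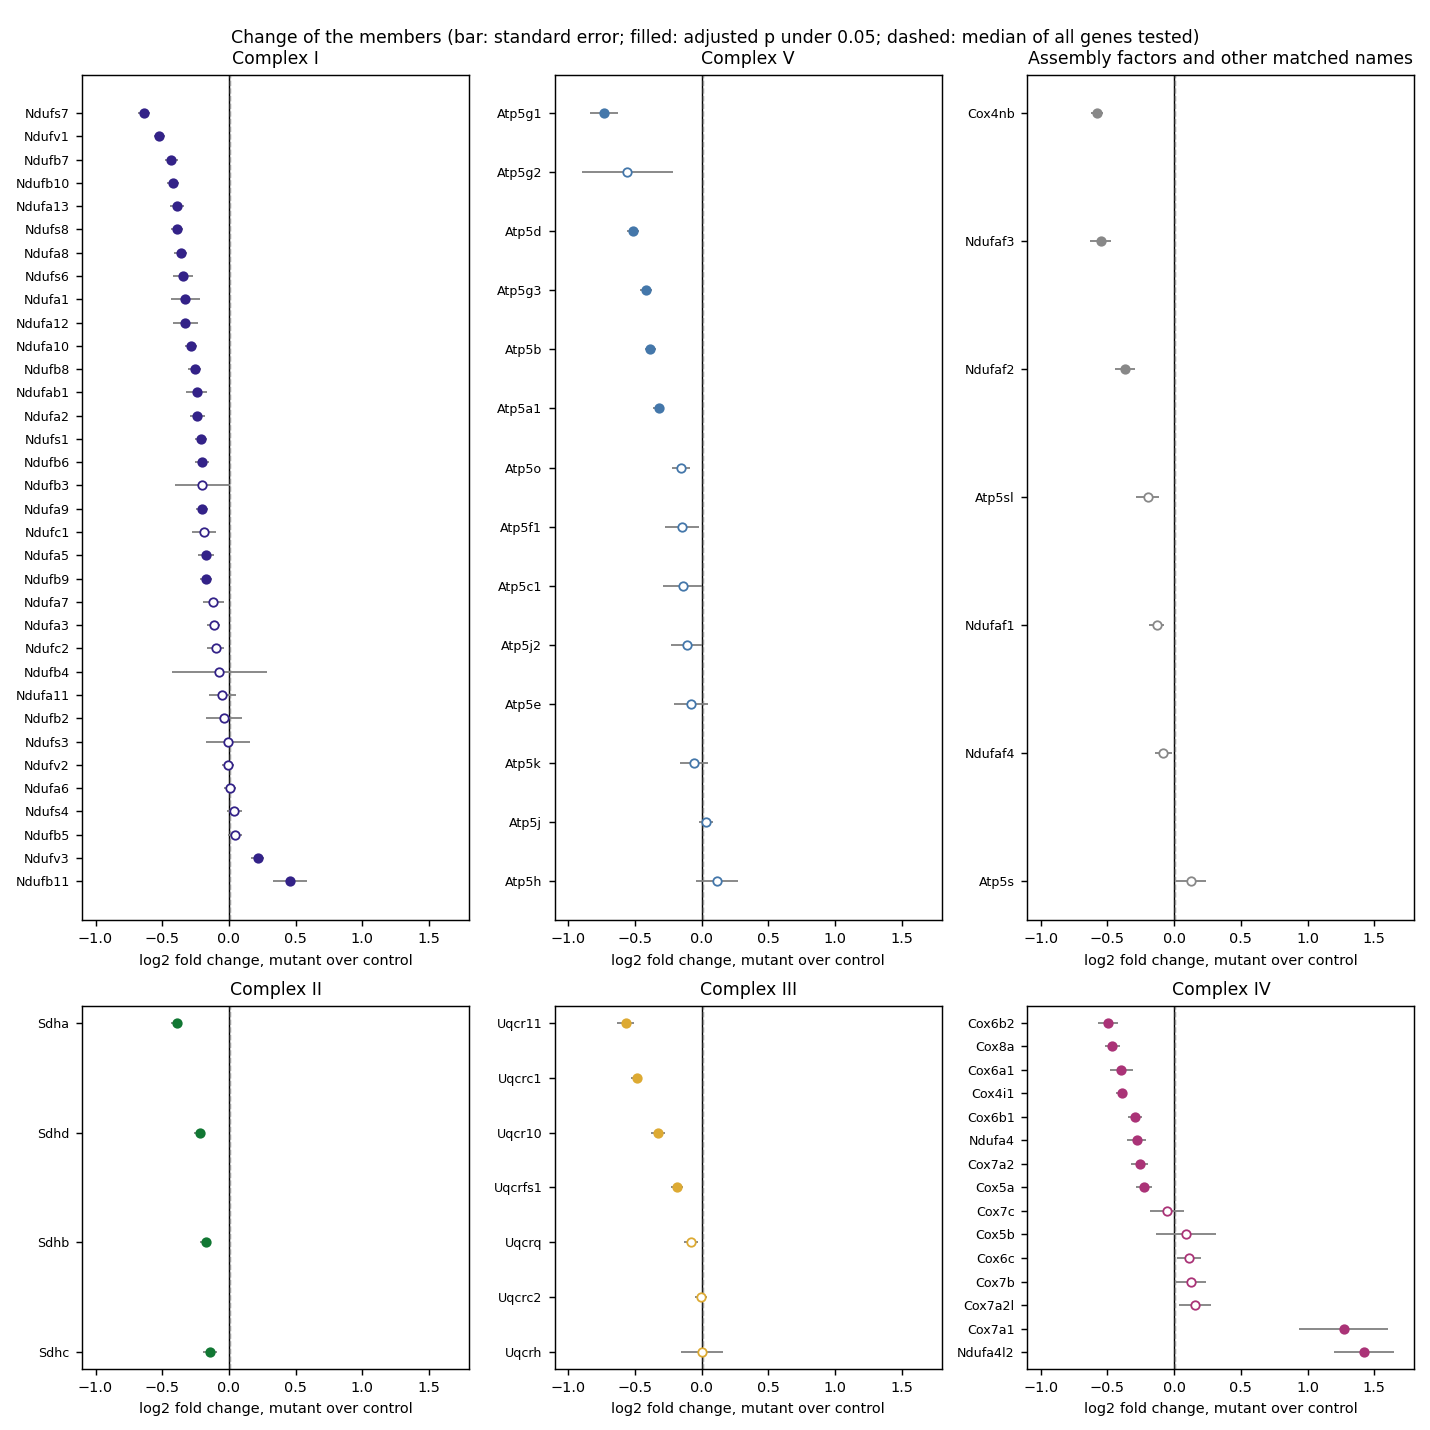
Log2 fold change of the members, 1 left out (mutant over control, horizontal axis), by complex, with standard errors as bars; filled points passed the test and the dashed line is the median of all genes tested. Complex II lies wholly to the left of 0 with all 4 points filled, and in complex V the 5 filled points are Atp5g1, Atp5d, Atp5g3, Atp5b and Atp5a1.

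Promoter sequence was examined because nuclear subunit genes share regulators, among them the nuclear respiratory factor NRF1, the ETS factor GABP and YY1. All 82 members were matched to RefSeq genes and 70 had a promoter window in the table of GRCm38.p6, 250 bases before to 50 after the start. An exact match on either strand to the NRF1 motif, which reads GCGCA, then any base, then GCGC, was present in 24.3% of members with a window and in 12.1% of tested protein-coding genes (5.19% of all genes in the table). The ETS motif CCGGAAG was present in 22.9% of members and 20.7% of tested protein-coding genes (9.93% of all), and the YY1 motif ATGGCGG in 15.7% and 9.66% (4.69% of all). The stretches below show the NRF1 match in capitals, which in Ndufa8 is read on the other strand. The ETS match of Sdhd is also in capitals and read on the other strand. They cover both complex II genes with a match, a complex I and a complex IV gene that fell, and Atp5c1, which has a match and did not pass the test. All 5 lie on the minus strand and are written 5′ to 3′ on it: Sdha at chr13:74350289-74350368, Sdhd at chr9:50603879-50603958, Ndufa8 at chr2:36049339-36049418, Cox6a1 at chr5:115349071-115349150 and Atp5c1 at chr2:10080433-10080512, each ahead of the start site.
Sdha: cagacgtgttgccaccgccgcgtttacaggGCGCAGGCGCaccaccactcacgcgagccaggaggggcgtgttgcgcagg
Sdhd: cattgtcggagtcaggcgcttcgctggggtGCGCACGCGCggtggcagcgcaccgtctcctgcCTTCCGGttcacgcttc
Ndufa8: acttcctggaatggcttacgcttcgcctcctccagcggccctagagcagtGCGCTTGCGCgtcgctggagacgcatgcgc
Cox6a1: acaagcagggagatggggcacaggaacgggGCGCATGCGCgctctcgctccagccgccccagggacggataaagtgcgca
Atp5c1: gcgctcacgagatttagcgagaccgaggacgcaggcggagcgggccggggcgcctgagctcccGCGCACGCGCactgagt

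Falls were about as frequent among members with and without a match, beside 29.2% lower and 28.3% higher over all tested genes. For each of the motifs 0 members with a match rose and 3 members without it rose. Of 17 members with the NRF1 motif 8 fell (median log2 fold change -0.17), and of 53 without it 28 fell (median -0.20). With the ETS motif 9 of 16 fell and without it 27 of 54, and with the YY1 motif 6 of 11 fell and without it 30 of 59; these shares were not tested against each other. A match describes letters in this window and is not evidence that a factor binds there.

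Complex I, the largest of the 5, had 20 members that fell (57.1%), 2 that rose (5.71%) and 13 that did not pass (median log2 fold change -0.20). Over all tested genes 29.2% fell and 28.3% rose. Falls were found in every functional group: 5 of 7 core subunits, 9 of 13 alpha accessory subunits, 5 of 10 beta accessory subunits and 1 of 5 others. Ndufs7, a core subunit holding the last iron-sulfur cluster before ubiquinone, had 380.4 and 361 CPM in controls and 240.0 and 236 CPM in mutants. Both mutant libraries were well below both controls (log2 fold change -0.64 ± 0.05 SE, adjusted p = 2.96e-09, edgeR). Ndufv1, which binds NADH and was the highest complex I member by CPM, was at 566 and 566 CPM against 386 and 403 CPM. It fell by 30.3% (log2 fold change -0.52 ± 0.04 SE, adjusted p = 1.88e-08, edgeR). Core subunits Ndufs8 (-0.39) and Ndufs1 (-0.21) also fell. The remaining core pair did not pass: Ndufv2, the partner of Ndufv1 in the NADH-binding module, was at 287 and 275 CPM against 281 and 280.2 CPM, and Ndufs3 was at 6.56 to 9.23 CPM. In the fit scaled by library totals alone Ndufv2 was instead higher (log2 fold change 0.13, adjusted p = 0.0155).

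Among the beta accessory subunits, which sit in the proton-pumping arm, Ndufb7 fell by 0.43 on the log2 scale (206 and 201 CPM in controls, 148 and 154 CPM in mutants), Ndufb10 by 0.42, Ndufb8 by 0.26, Ndufb6 by 0.20 and Ndufb9 by 0.17. Ndufb11 went the other way, at 10.4 and 8.12 CPM in controls and 12.4 and 13.3 CPM in mutants (log2 fold change 0.46 ± 0.13 SE, adjusted p = 0.00581, edgeR). Without control replicate 2 it did not pass (0.28, adjusted p = 0.081). In the GENCODE M21 annotation 12.9% of its exon bases overlap Rbm10 on the other strand, and 28.2% of its 32-base windows recur in other genes. Ndufv3, an accessory subunit of the NADH-binding module, was the other complex I gene that rose: 133 and 125 CPM in controls against 151 and 149 CPM in mutants (log2 fold change 0.22 ± 0.05 SE, adjusted p = 0.00158, edgeR). Its core neighbours in that module, Ndufv1 and Ndufv2, were lower and not called, respectively. The alpha subunits that did not pass were Ndufa3, Ndufa6, Ndufa7 and Ndufa11, with log2 fold changes between -0.12 and 0.01. Of the 5 other accessory subunits Ndufs6 fell (-0.34), Ndufv3 rose, and Ndufc1 (-0.19), Ndufc2 (-0.10) and Ndufs4 (0.04) did not pass.

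Complex II, succinate dehydrogenase, belongs to both the respiratory chain and the tricarboxylic acid cycle. All 4 of its subunits fell, beside 29.2% of all tested genes. Sdha, the flavoprotein that oxidises succinate, was at 636 and 646 CPM in controls and 482 and 496 CPM in mutants (log2 fold change -0.39 ± 0.04 SE, adjusted p = 4.53e-07, edgeR). Sdhd, a membrane anchor, was the highest of the 4 by CPM at 694 and 694 against 601 and 591 CPM (-0.22 ± 0.04 SE). The iron-sulfur subunit Sdhb fell by 11.4% (489 and 479 against 430 and 428 CPM). The second anchor, Sdhc, showed the smallest fall, from 285 and 259 CPM to 248 and 245 CPM, and its adjusted p was 0.0229 with edgeR and 0.0544 with DESeq2. Every mutant library was below both controls for each of the 4 genes, but 2 of them passed under upper quartile scaling and 1, Sdha, under library totals alone.

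In complex III 4 of 7 members fell (57.1%), beside 29.2% of all tested genes. As in complexes II and V, 0 members rose by edgeR, also at an unadjusted p under 0.05, and 0 rose with DESeq2 or limma-voom. Uqcrc1, a core protein on the matrix side, was at 1142 and 1071 CPM in controls and 791 and 788 CPM in mutants (log2 fold change -0.49 ± 0.04 SE, adjusted p = 4.33e-08, edgeR). Its partner core protein Uqcrc2 did not pass, at 522 and 535 CPM against 510.5 and 542 CPM; it too was higher under library totals alone (0.13, adjusted p = 0.0151). The Rieske iron-sulfur protein Uqcrfs1 fell by 0.19 on the log2 scale. The small accessory subunits Uqcr11 (94 and 98 CPM against 68 and 60 CPM, -0.57) and Uqcr10 (110.1 and 110.5 CPM against 88 and 88 CPM, -0.33) fell further. Uqcrq (-0.08) and the hinge protein Uqcrh (0.00) did not pass. The controls of Uqcrh stood apart from each other, at 69.7 and 50.9 CPM, with the mutants between them at 59.8 and 61.3 CPM, and without control replicate 2 its log2 fold change was -0.22 (adjusted p = 0.00816, edgeR), and without control replicate 1 it was 0.24 (adjusted p = 0.0246). Cytochrome c1 (Cyc1), a catalytic subunit that the name rule does not match, was at 880 and 874 CPM against 560 and 550.3 CPM (-0.66 ± 0.04 SE, adjusted p = 4.84e-10, edgeR).

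Complex IV, cytochrome c oxidase, held both directions, with 53.3% of members lower and 13.3% higher. Over all tested genes 29.2% were lower and 28.3% were higher. Ndufa4 and its paralog Ndufa4l2 were placed here, since NDUFA4 is a complex IV subunit despite its name. Of 11 subunits in general use 7 fell, and of 4 paralogs of such subunits (Cox6b2, Cox7a1, Cox7a2l and Ndufa4l2) 1 fell and 2 rose. Cox4i1, the regulatory subunit that binds ATP, was the highest member of the complex by CPM, at 1172 and 1187 CPM in controls and 877 and 921 CPM in mutants (log2 fold change -0.39 ± 0.04 SE, adjusted p = 4.07e-07, edgeR). Cox8a was at 156 and 146 CPM against 105 and 115 CPM (-0.46 ± 0.06 SE), and Cox6a1 at 351 and 312 CPM against 234 and 271 CPM (-0.40 ± 0.08 SE). Cox6b1, Ndufa4, Cox7a2 and Cox5a also fell, by 0.23 to 0.30 on the log2 scale. Cox7c, Cox5b, Cox6c and Cox7b did not pass, with log2 fold changes from -0.06 to 0.13 and no value above 30.2 CPM in any library.

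The isoforms that rose were rare. Ndufa4l2 (ENSMUSG00000040280), known as a target of hypoxia-inducible factor (HIF), was at 2.03 and 1.33 CPM in controls and 5.03 and 3.94 CPM in mutants. Both mutants were above both controls (log2 fold change 1.42 ± 0.22 SE, adjusted p = 3.97e-05, edgeR). Cox7a1 (ENSMUSG00000074218), the heart and muscle isoform, was counted 14 and 12 times in controls and 34 and 22 times in mutants (1.27 ± 0.34 SE, adjusted p = 0.00372, edgeR; 0.0853 with DESeq2). Its general partner Cox7a2 was at 195 and 168 CPM against 154 and 150 CPM and fell by 16.4%, and the related Cox7a2l, at 16 to 21.8 CPM, did not pass (0.16). Cox6b2 (ENSMUSG00000051811), best known from testis, was the isoform that fell. It was at 103 and 87 CPM against 68 and 67 CPM (-0.49 ± 0.07 SE, adjusted p = 5.15e-05, edgeR), beside 140 and 131 CPM against 112 and 109 CPM for Cox6b1.

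Of the isoforms under the count minimum, Cox4i2 and Cox6a2 had more counts in the mutants, though few. Cox4i2, the lung isoform and another known HIF target, was counted 2 and 0 times in controls and 19 and 10 times in mutants. It passed the expression filter only through the mutant libraries, where it is high, so no test or interval of it is given. Even in the mutants it stood at 0.72 and 0.64 CPM, beside 877 and 921 CPM for Cox4i1. Cox6a2, the muscle isoform, had 2 and 0 counts against 10 and 4 and was too low to be tested. Cox8b and Cox8c had 1 count each in all, and Cox7b2 had 0. Mesenchymal markers, which took a larger share of the mutant libraries as stated above, were as rare as these isoforms: Col1a1 was at 1.96 and 2.06 CPM against 6.69 and 6.11 CPM. Their part in the isoform values was not tested.

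**Figure D2:**
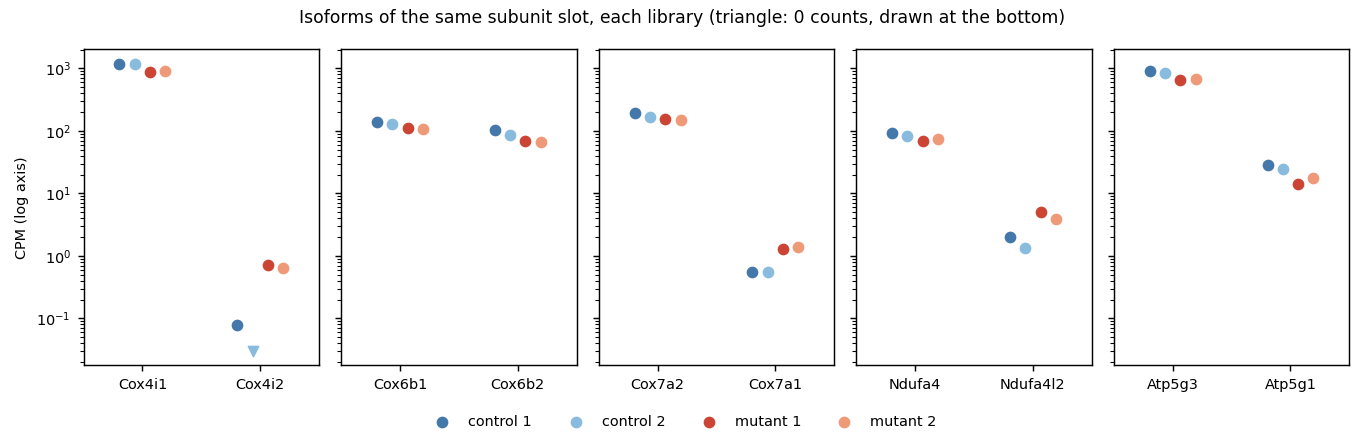
CPM (log axis) of pairs of isoforms in each of the 4 libraries; the triangle marks control replicate 2 of Cox4i2, which had 0 counts. Cox4i1, Cox7a2 and Ndufa4 are lower in both mutant libraries while Cox4i2, Cox7a1 and Ndufa4l2 are higher, at levels below 6 CPM, and both Cox6b isoforms and both Atp5g isoforms are lower.

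In complex V 5 of 14 members fell (35.7%), near the 29.2% of all tested genes. Of the 5, 3 are in the F1 part, which holds the catalytic head and the central stalk, and 2 in the rotating ring of c subunits. All but Atp5g1 had means above 256 CPM, a range where 66.7% of other tested genes fell. Atp5a1 and Atp5b, the alpha and catalytic beta subunits, were the 2 highest members by CPM of all 82. Atp5a1 was at 3427 and 3466 CPM in controls and 2705 and 2809 CPM in mutants (log2 fold change -0.32 ± 0.04 SE, adjusted p = 1.95e-06, edgeR). Atp5b was at 2855 and 2813 CPM against 2161 and 2185 CPM (-0.38 ± 0.04 SE, adjusted p = 1.95e-07, edgeR). Atp5d, the delta subunit of the central stalk, was at 765 and 709 CPM against 530 and 502 CPM (-0.51). In each of these 3 genes the lowest control was above the highest mutant by more than the gap within either group.

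The c ring is encoded by 3 genes that give the same mature protein. Atp5g3 supplied most of its counts, at 921 and 860 CPM in controls and 645 and 688 CPM in mutants (log2 fold change -0.42 ± 0.05 SE). Atp5g1 (ENSMUSG00000006057) had the lowest log2 fold change of all members, at 28 and 24.6 CPM against 14.4 and 17.9 CPM (-0.73 ± 0.11 SE, adjusted p = 3.1e-05, edgeR). Atp5g2 was at 0.70 to 1.29 CPM and did not pass (-0.56).

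None of the 6 peripheral stalk and membrane subunits passed the test (Atp5f1, Atp5h, Atp5j, Atp5j2, Atp5k and Atp5o, median log2 fold change -0.08), beside 29.2% lower over all tested genes. Their control means ran from 4.70 CPM for Atp5h to 172 CPM for Atp5j. Of non-members 9.98% fell below 16 CPM, 30.7% at 16 to 64 CPM and 51.1% at 64 to 256 CPM. At an unadjusted p under 0.05 in edgeR 1 of the 6 subunits, Atp5o (-0.15), was lower, and with DESeq2 and limma-voom 0 were. This did not hold when control replicate 2 was left out, where Atp5f1 (-0.30) and Atp5j2 (-0.31) were lower, or without a filter beyond 1 count, where Atp5f1 and Atp5o were lower (-0.19 each). With the replicate number as a block Atp5f1 and Atp5o were lower (-0.15 each), and with library totals alone Atp5j was higher (0.17). A difference between these subunits and the rest of complex V was not tested. In F1 Atp5c1 and Atp5e did not pass either: Atp5e was at 453 and 361 CPM in controls and 392 and 379 CPM in mutants, so the controls enclosed the mutants. Such a gap between controls was common to many members. Control replicate 1 was above control replicate 2 for 66 of 82 members and for 6898 of 13140 tested genes. The median log2 difference was 0.09 over the members (0.20 in complex V and 0.17 in complex IV) against 0.01 over all tested genes. Between the mutant libraries the members' median difference was -0.01. Without control replicate 2 complex V had 9 members that fell and a median of -0.32, against -0.10 without control replicate 1 and -0.23 without mutant replicate 1, where 5 fell each time.

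The 7 names that match without being subunits behaved in the same range. Ndufaf3 (-0.55) and Ndufaf2 (-0.37), assembly factors of complex I, fell, whereas Ndufaf1 (-0.13) and Ndufaf4 (-0.08) did not pass. Cox4nb, a gene beside Cox4i1 that encodes a subunit of an endoplasmic reticulum membrane complex and no oxidase subunit, was at 265 and 249.8 CPM against 172 and 173 CPM (-0.58, adjusted p = 1.9e-08, edgeR). In GENCODE M21 it overlaps 9.9% of the exon bases of Cox4i1 on the other strand. Atp5s (0.13) and Atp5sl (-0.20) did not pass. Without these 7 the count was 41 of 75 lower and 4 higher.

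Summed over their members, the complexes took a smaller part of the mutant libraries. All 82 members took 2.19% and 2.12% of counts in the controls and 1.91% and 1.94% in the mutants. Complex V was the largest at 0.859% and 0.836% against 0.732% and 0.741%, followed by complex I at 0.591% and 0.572% against 0.531% and 0.540%. Complex III took 0.257% and 0.249% against 0.232% and 0.231%, complex IV 0.228% and 0.218% against 0.189% and 0.196%, and complex II 0.200% and 0.199% against 0.185% and 0.184%. For each of the 5 complexes both mutant libraries were below both controls. Such sums weigh abundant genes most. In control replicate 1 Atp5a1 gave 87634 and Atp5b 73019 of the 230894 counts of complex V, and Cox4i1 gave 29963 of the 61430 counts of complex IV. The Wilson 95% intervals, which cover counting error only, were narrower than the gap in every case, for instance 2.118% to 2.13% for control replicate 2 and 1.928% to 1.942% for mutant replicate 2.

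**Figure D3:**
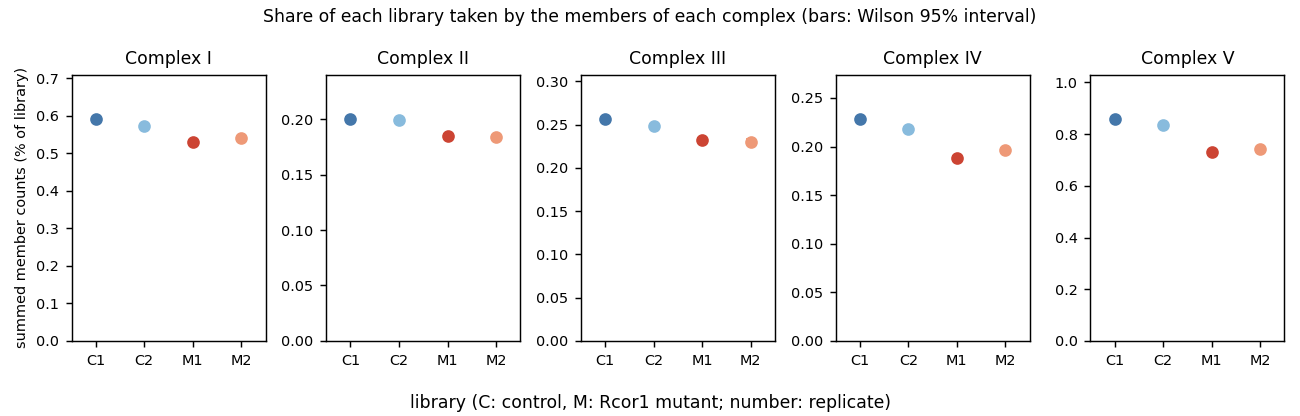
Percent of each library's counts taken by the members of each complex (vertical axis from 0), one point per library with its Wilson 95% interval, which is mostly smaller than the point. In each of the 5 panels both mutant points (M1, M2) lie below both control points (C1, C2).

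Per kilobase of annotated exon the control levels of members spanned a wide range. Cox4i1 (1542 ± 15 CPM per kb, SD, n = 2), Atp5b (1479 ± 16), Atp5g3 (1230 ± 60) and Atp5a1 (1187 ± 10) were the 4 highest, while Ndufb4 (0.84), Atp5g2 (0.66) and Ndufb2 (1.90) were near the bottom. Many subunit genes have processed copies elsewhere in the genome. Of the 82 members 14 had at least 25% of their 32-base exon windows repeated exactly in another annotated gene. Any kind of gene on either strand counted, neighbours with overlapping exons included. For Ndufb6 (34.3%), Cox5b (28.2%), Ndufb9 (25.4%) and Uqcrc2 (25.1%) 0 of the sharing genes were pseudogenes. The median control level of the 14 was 52.6 CPM per kb, against 223 for the 29 members with under 1% repeated. Spearman's rho between the repeated share and the control level was -0.36 over the 82 members, which share the same libraries. The sources used here do not say how reads with several matches were counted, so low values of such genes (Atp5h 46.4% repeated, Ndufs3 54.0%, Atp5g2 40.1%) are uncertain as levels. Of the 14, 5 fell and 1 rose, beside 29.2% lower and 28.3% higher over all tested genes. Exons also overlap other annotated genes, over 65.6% of exon bases in Ndufaf2, 43.8% in Atp5o, 39.0% in Ndufb6, 30% in Ndufa13 and 19.7% in Uqcrc2, and the strand setting of the counting is not stated. The 9 names under the minimum included Atp5l (85.4% repeated) and Uqcrb (57.3%).

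The falls followed expression level, as they did in other genes. Of 25 members with a mean of at least 256 CPM 84% fell (median log2 fold change -0.29), and of the 812 other tested genes at that level 66.7% fell (median -0.25). Between 64 and 256 CPM 59.3% of 27 members and 51.1% of other genes fell, with medians of -0.23 and -0.15. Between 16 and 64 CPM the shares were 41.2% of 17 members and 30.7% of others. Below 16 CPM 0 of 13 members (edgeR; also 0 at an unadjusted p under 0.05, with DESeq2 and with limma-voom) and 9.98% of others fell, while 3 of 13 members and 36.3% of others rose. The members' share of falls was above that of genes of like expression in each of the 3 upper ranges; this difference was not tested.

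**Figure D4:**
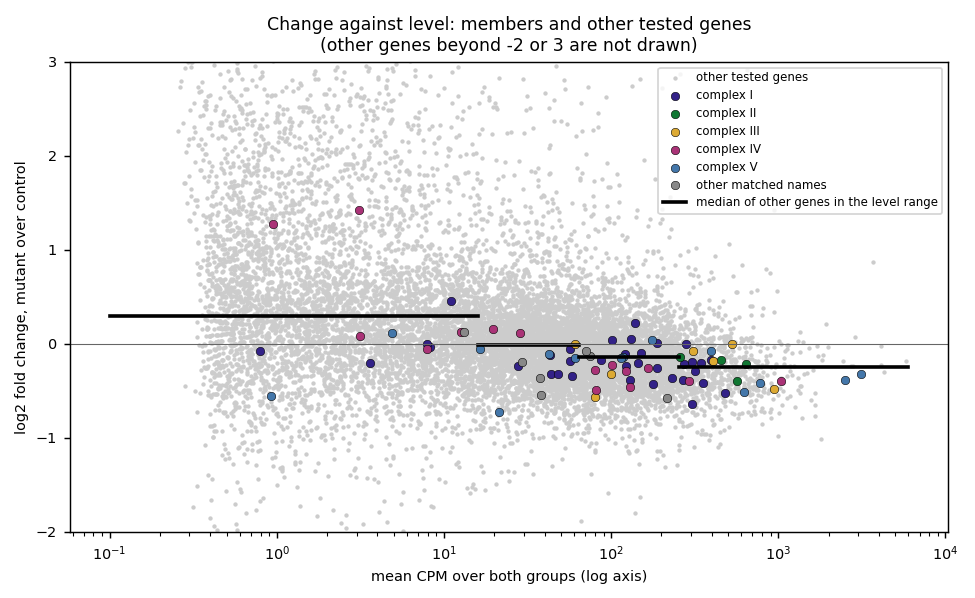
Log2 fold change (vertical axis) against mean CPM over both groups (log axis) for members by complex and for other tested genes in grey; black lines are medians of the other genes in 4 ranges of level. The lines step from 0.29 below 16 CPM to -0.25 above 256 CPM, and members at 64 CPM or more have medians of -0.23 and -0.29 in their ranges.

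Scaling set how many members were called. When TMM factors (0.951 to 1.052) were dropped and only library totals were used, the median of all tested genes moved from 0.01 to 0.15, 27 members were lower and 13 higher, and the members' median was -0.06. A change of scaling moves all genes alike, so the members' median lay 0.21 below that of all tested genes under each one; with other filters or a library left out the difference ran from -0.30 to -0.18. All 44 members that fell stayed below 0 in every alternative, and 27 of them were called lower in each one. In the authors' deposited table, 24 members were lower and 8 higher with a median of -0.06, where 17.7% of its genes were lower and 37.7% were higher. The log2 fold changes of the authors' deposited table lay 0.14 above the TMM-scaled ones (median over 13064 genes).

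Genes that act with the subunits were more often lower than higher. Over all tested genes 29.2% were lower and 28.3% were higher. Of tested genes outside the members 51.1% were lower at 64 to 256 CPM, and 66.7% at higher levels. Of 23 tested assembly and maturation factors outside the name rule 14 fell and 1 rose. Cox11, which delivers copper to complex IV, was at 31.9 and 28.2 CPM against 15.8 and 17.8 CPM (-0.86), and Cox10, which makes heme for it, was at 23.3 and 21.6 CPM against 13.9 and 14.4 CPM (-0.67); Ttc19, of complex III, rose (0.37). Among 16 genes for electron carriers and ubiquinone synthesis 7 fell and 9 did not pass, with Cyc1 (-0.66) and Coq4 (-0.64) lowest. Under library totals alone the median of these 16 turned from -0.10 to 0.04. Of 17 genes of pyruvate dehydrogenase and the tricarboxylic acid cycle 13 fell. Dlst (-0.50) and Ogdh (-0.46), both of the oxoglutarate dehydrogenase complex, fell most, and Sucla2 rose (0.21).

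Regulators of the subunit genes fell or did not pass, beside 29.2% lower and 28.3% higher over all tested genes. By edgeR 0 rose, also at an unadjusted p under 0.05, and 0 rose with DESeq2 or limma-voom. Of 9 tested regulators 5 fell: Hcfc1 (857 and 913 CPM against 592 and 580 CPM, -0.60), Pprc1 (-0.42), Esrra (-0.38), Nrf1 (-0.35) and Yy1 (-0.31). Nrf1 was at 194 and 197 CPM in controls and 155 and 151 CPM in mutants. The GABP subunits Gabpa (0.02), Gabpb1 (0.08) and Gabpb2 (0.09), and the coactivator Ppargc1b (-0.10), did not pass; under library totals alone all 3 GABP genes were higher (0.16 to 0.22), and under upper quartile scaling Gabpb1 and Gabpb2 were. Ppargc1a, with 2 to 9 counts a library, was not tested.

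Targets of HIF, which are known to shift cells towards glycolysis, were mostly higher. Of 13 tested targets 11 rose and 1 fell (median log2 fold change 0.58), beside 28.3% higher and 29.2% lower over all tested genes. Egln3, a HIF prolyl hydroxylase, was at 0.74 and 0.78 CPM in controls and 13 and 12.7 CPM in mutants (4.07 ± 0.18 SE, adjusted p = 8.86e-12, edgeR). The mitophagy receptor gene Bnip3 was at 2.62 and 1.97 CPM against 10.1 and 7.44 CPM (1.95), and the glycolytic genes Pgk1 (1.27) and Ldha (0.29) rose as well. Pdk1, which restrains pyruvate dehydrogenase, did not pass (0.07), and Lonp1, a mitochondrial protease, was the 1 that fell (-0.33).

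**Figure D5:**
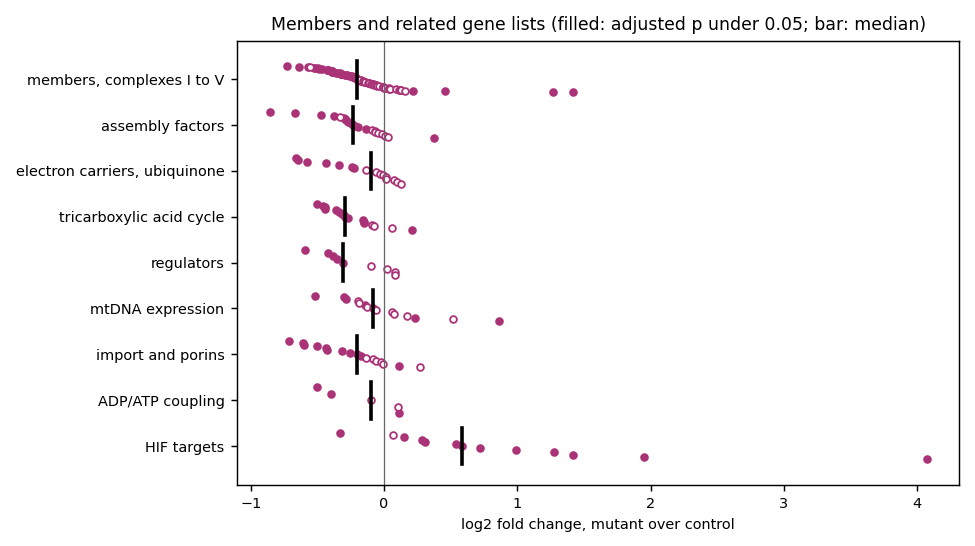
Log2 fold change (horizontal axis) of the subunits of complexes I to V and of 8 related gene lists, one point per tested gene, filled where it passed the test, with list medians as black bars. The medians are -0.20 for the subunits and -0.29 for the tricarboxylic acid cycle, and 0.58 for the HIF targets, where Egln3 lies at 4.07.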

How the data were processed

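Raw counts per gene of 4 libraries were used as deposited by the authors; the submitters' processing notes name FastQC, Bowtie, edgeR and the mm9 build, without versions. The counting tool, strand, read length and the handling of reads with several matches are not given in the sources used here. Of 35939 rows, 12 were NA in every library and were left out. The columns named as wild type were taken as the control libraries by number, since control is the only other group. The log2 fold changes and p-values of the authors' deposited table were read for comparison only.

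Genes passing edgeR's expression filter (13140) were fitted with edgeR 4.0.16 (R 4.3.3), TMM factors and the quasi-likelihood test, without a block, and p-values were Benjamini-Hochberg adjusted over all of them; the biological coefficient of variation was 4.81%. CPM were computed with TMM-scaled library sizes. Under simulation on 12927 genes of this comparison, 24 of 50 genes changed 1.25-fold and 47 of 50 changed 1.5-fold were called. The simulation gave every gene the same dispersion (0.00232) and changed only a small share of genes, drawn from those with many counts. In the data 57.5% of genes were called, so the simulated shares do not give the sensitivity of this comparison. Alternatives were RLE, upper quartile and library-total scaling, other filters, DESeq2 1.42.0, limma-voom (limma 3.58.1), a replicate block and each library left out. Exon lengths, shared windows and overlaps came from GENCODE M21 and promoters from RefSeq, both GRCm38 and not the files' build. Members, gene lists and roles were chosen with earlier results of these data known. Per complex, the genes named were the 3 largest rises and falls, the highest by CPM, isoform sets, and all genes of any count of 5 or fewer; per list, the 2 largest rises and falls. The values of 1 complex I member are not reported here, although it is included in all counts and sums.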

Additional observations from a re-analysis of the deposited data

How the results depend on the processing

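With 2 libraries a group, falls of about 10% are near what can be called, and genes under 16 CPM are less precisely measured. The members' counts and medians kept their direction under RLE scaling, limma-voom, DESeq2 and both filters, with 41 to 53 lower and 3 or 4 higher. Upper quartile scaling gave medians of -0.12 over all members, -0.13 in complex I, -0.12 in II, -0.11 in III, -0.15 in IV and -0.075 in V, with 2 of complex II lower. Library totals alone gave 27 lower and 13 higher with a median of -0.062 (subunits without the other matched names: 24 and 12). By complex it gave 10 lower and 6 higher (median -0.064) in I, 1 lower (-0.060) in II, 3 lower and 1 higher (-0.048) in III, 5 lower and 4 higher (-0.093) in IV and 5 lower and 1 higher (-0.014) in V, and over the related gene lists 36 lower and 28 higher of 115. It also turned the medians of electron carriers (0.042), mitochondrial DNA expression (0.052) and ADP/ATP coupling (0.041), and the values of Uqcrc2 (0.13), Ndufv2 (0.13) and Lrpprc (0.00). Without a filter beyond 1 count 8 members of complex V were lower, and with DESeq2 1 member of complex IV was higher. The cause of these shifts was not tested.

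Leaving out each library gave 38 to 55 members lower, 3 to 6 higher and medians from -0.28 to -0.16. The medians ran from -0.27 to -0.17 in complex I (1 to 2 higher), -0.32 to -0.16 in IV and -0.32 to -0.10 in V (5 to 9 lower), and complex III had 0 to 1 higher. Uqcrh was at -0.22 without control replicate 2 and 0.241 without control replicate 1, and mitochondrial DNA expression had a median of 0.054 without mutant replicate 1. The labels number the libraries without saying that a number pairs them, and the deviations of same-numbered libraries correlated at r = 0.225 over 13140 genes. With the replicate number as a block 53 members were lower and 4 higher, 8 of them lower in complex V.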

Other observations

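Genes of protein entry into mitochondria were also lower on balance. Of 17 tested import and porin genes 10 fell and 1 rose, beside 29.2% lower and 28.3% higher over all tested genes. Tomm40, the outer membrane import channel, was at 283 and 281 CPM in controls and 176 and 168 CPM in mutants (log2 fold change -0.71), and Timm13 was at 605 and 550.2 CPM against 372 and 385 CPM (-0.61). The porin Vdac1 fell by 0.43 on the log2 scale, and Tomm70a rose by 0.11.

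Of 15 genes that express or maintain mitochondrial DNA 4 fell and 2 rose. Falls were no more frequent there than over all tested genes (29.2%). The mitochondrial RNA polymerase Polrmt (107 and 105 CPM against 75 and 73 CPM, -0.52), the polymerase Polg (-0.30), the helicase gene Peo1 (-0.28) and Tfam (-0.15) fell, while the thymidine kinase Tk2 (26.9 and 24.2 CPM against 46.1 and 47.2 CPM, 0.87) and Mterfd1 (0.23) rose. Among 5 tested genes of ADP and ATP exchange and uncoupling, Ucp2 (813 and 754 CPM against 584 and 521 CPM, -0.50) and the phosphate carrier Slc25a3 (-0.39) fell and the ADP/ATP carrier Slc25a4 rose (0.12).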
